A study of Mus musculus with 117 samples.

Results

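The genes described here encode the proteins of the cytosolic ribosome in mouse fibroblasts, reprogramming intermediates and pluripotent cells with and without the SUMO conjugating enzyme Ubc9. They were taken by symbol from a table of RNA-seq read counts: every gene named Rpl or Rps followed by a number, plus Rplp0, Rplp1, Rplp2 and Rpsa. Of 151 matching symbols, 48 pseudogenes, Rpl10l and Rpl3l (2 genes) and 10 genes of the S6 kinase family were left out by that rule. The remaining 91 of 26301 genes are 46 genes of the large subunit, 31 genes of the small subunit and 14 copies and relatives. These 14 are 7 expressed paralogs (Rpl7l1, Rpl22l1, Rpl36al, Rpl39l, Rps4l, Rps27l and Rps27rt), 6 further gene copies (Rpl32l, Rpl37rt, Rpl6l, Rps23rg1, Rps3a2 and Rps3a3) and Rps19bp1, a gene named after a ribosomal protein whose product is a binding protein of Rps19. The 77 genes of both subunits are called core genes below. Fau, which also encodes a ribosomal protein, does not match the symbol pattern and is counted with another list.

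The 28 RNA libraries fall into 10 groups, each state with a control hairpin or siRNA and with one against Ubc9. Mouse embryonic fibroblasts (MEF) were from E13.5 embryos and carried a control hairpin (shCtrl, 3 libraries) or a hairpin against Ubc9 (shUbc9, 2 libraries). The same fibroblasts expressed the reprogramming factors Oct4, Klf4, Sox2 and c-Myc (OKSM) for 4 days (D4) or 7 days (D7), with 3 shCtrl and 3 shUbc9 libraries at each time. Induced pluripotent stem (iPS) cells derived from MEF had 2 shCtrl and 3 shUbc9 libraries, and embryonic stem (ES) cells received control siRNA (siCtrl, 3 libraries) or siRNA against Ubc9 (siUbc9, 3 libraries). The labels name no strain, and they do not say whether replicates were separate cultures or animals, and the spread behind every p-value below may thus be technical. The means of depletion also differ, a hairpin in the fibroblast-derived states and a siRNA in ES cells.

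Ribosomal proteins assemble with ribosomal RNA in the nucleolus and are needed in near-equal numbers, and their genes are therefore among the most evenly and highly expressed of a cell. Their messenger RNAs typically start with a C followed by a run of pyrimidines, the terminal oligopyrimidine (TOP) motif, through which mTOR signalling controls their translation. A few subunits have paralogs in the genome whose proteins can take the place of the main form, and some of those are known to be enriched in particular tissues, such as Rpl39l in the testis. Ubc9 is the only known E2 enzyme that attaches SUMO to other proteins, many of them transcription and chromatin factors, and SUMO is also known to act in ribosome assembly.

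The start-site regions of 7 members are shown because they carry the sequence features that the family shares, or because they let a parent gene be read beside its paralog. Each runs from 70 bases before the annotated start to 20 bases from it, 5′ to 3′ on the strand of the gene, from RefSeq (GRCm38.p6). Capitals mark matches to the motifs CCGGAAG (bound by ETS factors) and TATAAA, and a run of pyrimidines that begins with a C at the annotated start. Rpl15, a large-subunit protein, and Rps10, a small-subunit protein of the head, hold both an ETS match and the pyrimidine run, and Rps6, the substrate of S6 kinase, shows the pyrimidine run.
Rpl15, chr14:18270967-18271056, minus strand: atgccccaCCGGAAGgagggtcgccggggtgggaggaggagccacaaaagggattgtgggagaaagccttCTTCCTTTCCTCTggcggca
Rps10, chr17:27635225-27635314, minus strand: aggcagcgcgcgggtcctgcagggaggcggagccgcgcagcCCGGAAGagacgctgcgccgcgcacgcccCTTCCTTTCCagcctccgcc
Rps6, chr4:86857348-86857437, minus strand: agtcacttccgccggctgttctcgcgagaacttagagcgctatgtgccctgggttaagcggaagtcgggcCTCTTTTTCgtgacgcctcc
Rps27, chr3:90213629-90213718, minus strand: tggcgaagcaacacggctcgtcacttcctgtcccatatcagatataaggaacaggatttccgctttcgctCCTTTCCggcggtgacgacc
Rps27l, chr9:66946016-66946105, plus strand: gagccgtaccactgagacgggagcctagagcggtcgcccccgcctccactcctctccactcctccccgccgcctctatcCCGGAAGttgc
Rpl22, chr4:152325656-152325745, plus strand: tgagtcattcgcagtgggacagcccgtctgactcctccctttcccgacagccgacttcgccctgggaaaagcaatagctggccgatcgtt
Rpl22l1, chr3:28805438-28805527, plus strand: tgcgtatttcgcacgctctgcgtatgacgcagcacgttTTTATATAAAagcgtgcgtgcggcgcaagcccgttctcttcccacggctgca
Rps27 has the pyrimidine run at its annotated start and its paralog Rps27l does not. In Rps27l the annotated start is a G, and a C with a short run of pyrimidines (cctct) follows directly. A slight shift of the annotated start would thus remove this difference. Rpl22l1 holds overlapping TATAAA matches on both strands, while its parent Rpl22 holds none of the marked motifs in this stretch. In the longer start regions of 300 bases described next, TATAAA occurs in both Rpl22 and Rpl22l1, so it does not separate the pair there.

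Start regions of 300 bases were given by RefSeq for 67 of the 91 members, 57 of them core genes, and were searched on both strands. CCGGAAG occurred in 24 of the 57 core genes (42.1%) and in 9.93% of 27025 genes. GGGCGG, the GC box bound by Sp1, occurred in 35 core genes (61.4%) against 38.2% of all genes, and AAGATGGC, the motif of YY1, in 5 (8.77%) against 3.19%. A C at the annotated start followed by at least 4 pyrimidines was found in 13 core genes (22.8%) against 3.01%. TATAAA occurred in 6 core genes (10.5%) against 15.7%, and the E box CACGTG in 6 (10.5%) against 8.09%. A start annotated a few bases off hides a pyrimidine run, and 9 members had more than 1 annotated window. These matches describe the letters only.

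Gene counts per library, in mega-counts (M), ran from 11.4 M to 58.8 M, and the 91 members together held 2.28% to 6.36% of them. Levels are given below as counts-per-million values (CPM) after scaling by the trimmed mean of M-values (TMM). Replicate 2 of the libraries labelled iPS shUbc9 stands apart in several ways: it was the shallowest at 11.4 M counts, its nuclear RNA Malat1 was at 379 CPM against 1600 to 2890 CPM in the other iPS libraries, and 7.22% of its counts were in repeat families, the lowest of all. Pluripotency markers summed to 2590 to 3110 CPM in iPS shCtrl, 2730 to 2880 CPM in ES siCtrl and under 1 CPM (0.412 to 0.656) in MEF shCtrl, with Dppa4 and Sall4 at 0 in MEF shCtrl, and fibroblast markers summed to 23100 to 27300 CPM in MEF shCtrl, 441 to 1230 CPM in iPS shCtrl and 71.7 to 87.2 CPM in ES siCtrl.

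The summed level of the 91 members was highest in iPS cells, and with shUbc9 it was higher at D4 and D7. MEF shCtrl summed to 29002, 27901 and 27624 CPM and MEF shUbc9 to 27242 and 27979 CPM, which overlap. At D4 the sums were 24403, 24573 and 24451 CPM with control hairpin and 27953, 24759 and 32443 CPM with shUbc9, which do not overlap, although the lowest shUbc9 library exceeded the highest control by less than the spread among shUbc9 libraries. At D7 they were 23731, 27259 and 25079 CPM against 32336, 27910 and 28578 CPM, again without overlap. The iPS controls had the highest control sums of all states, 41990 and 40927 CPM, and the libraries labelled iPS shUbc9 ranged widely, at 41389, 64020 and 34252 CPM. ES siCtrl, at 29423, 26660 and 28019 CPM, lay near the MEF controls, and ES siUbc9, at 34695, 26988 and 27340 CPM, overlapped ES siCtrl. In bulk RNA, fewer cells of a type and less RNA per cell cannot be told apart, and a share of all counts also moves when other genes change. Malat1 also differed between these groups, at 6350 to 9080 CPM in D4 controls and 5810 to 5970 CPM with shUbc9. At D7 it was at 6570 to 9610 CPM against 5160 to 6250 CPM. Controls had 4520 to 5230 CPM in MEF, 1900 to 2890 CPM in iPS and 3620 to 3660 CPM in ES cells. In MEF and ES cells the knockdown and control ranges of Malat1 overlapped. Its relation to the members' sums was not tested.

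**Figure D1:**
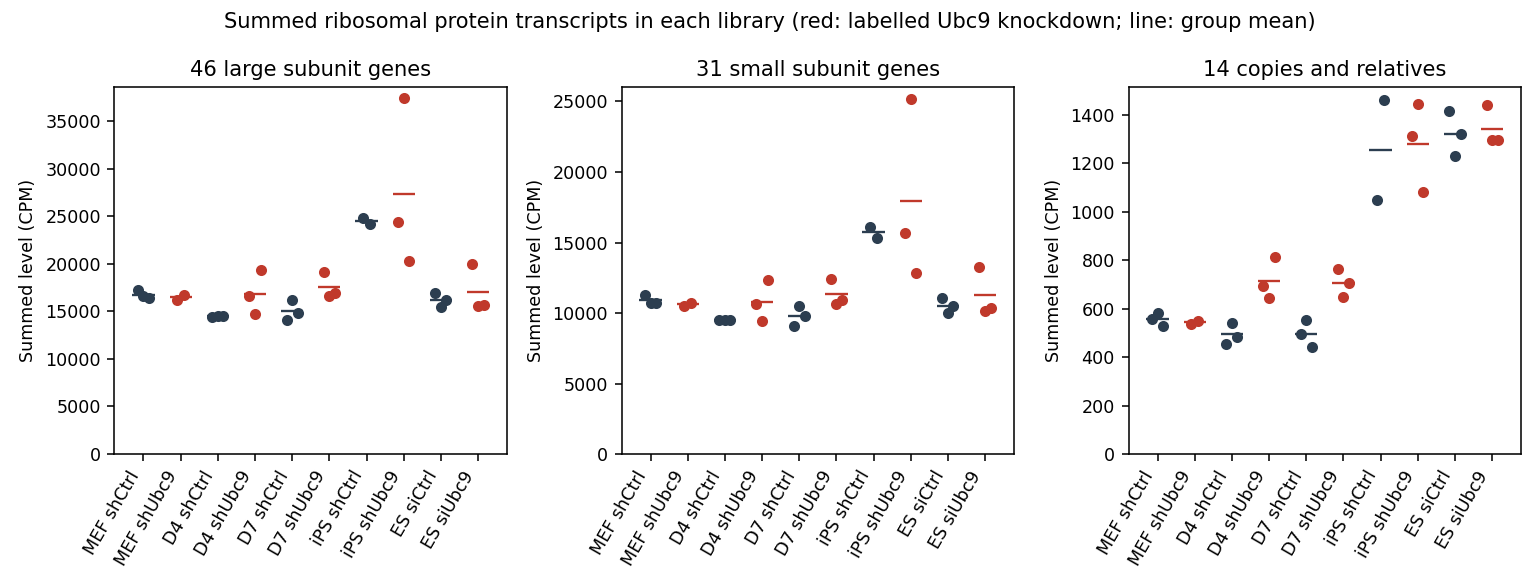
Summed CPM of the large-subunit genes (46), small-subunit genes (31) and copies and relatives (14) in each of the 28 libraries, by group; red points are libraries labelled as Ubc9 knockdown, other points are controls, and lines are group means. Core sums are highest in iPS cells, and 1 library labelled iPS shUbc9 (64020 CPM over all members) lies far above the others, while the copies are higher in both pluripotent states than in the fibroblast states and, at D4 and D7, higher with shUbc9.

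The spread of the core genes between replicates differed from group to group. The median coefficient of variation of the 77 core genes was 3.22% in MEF shCtrl and 2.03% in MEF shUbc9, 2.02% in D4 shCtrl and 14.4% in D4 shUbc9, and 7.85% in D7 shCtrl and 9.61% in D7 shUbc9. It was 5.2% in ES siCtrl and 15.4% in ES siUbc9, and 3.86% in iPS shCtrl and 33.6% in the libraries labelled iPS shUbc9. The highest sum over the members was that of replicate 3 in D4 shUbc9, replicate 1 in D7 shUbc9 and in ES siUbc9, and replicate 2 in the libraries labelled iPS shUbc9. Rplp0, a stalk protein of the large subunit, showed the pattern at D4, with 1120, 1040 and 1070 CPM in the controls and 1210, 1100 and 1400 CPM with shUbc9. In the iPS group it was at 1720 and 1620 CPM in the controls and 1670, 2950 and 1260 CPM in the libraries labelled shUbc9.

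Depletion of Ubc9 at D4 came with higher levels of some copies and of a minority of core genes. Of 90 members tested, 21 rose and 0 fell (adjusted p under 0.05, edgeR quasi-likelihood test with Benjamini-Hochberg adjustment over all genes tested), with 14 of 77 core genes and 7 of 13 copies and relatives among them. Over all genes 53.2% passed this test, 27.2% rising and 26.1% falling. The members' share of 23.3%, all of it rising, is close to the 27.2% of all genes that rose. It is below the 53.2% called in either direction. Beside the rising share of all genes, the core share of 18.2% is lower and that of the copies (53.8%) higher. The median log2 fold change was 0.2 for core genes and 0.51 for the copies, against -0.01 over all genes, and 85 of 90 members were positive, all but Rps28, Rps29, Rpl28, Rps3a3 and Rpl32l. Groups did not overlap for 43 members (47.8%) against 60.3% of all genes. At D7, 26 members rose and 0 fell of 90, against 53.6% of all genes passing, 27.3% rising and 26.3% falling. These were 16 of 77 core genes and 10 of 13 copies and relatives. The D7 medians were 0.17 for core genes and 0.47 for copies against 0.01 over all genes, 89 of 90 members were positive, and 47 members (52.2%) did not overlap between groups against 58.2% of all genes. Whether the copies differed from the core genes was not tested.

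Those counts depend on single libraries and on the scaling. Without replicate 2 of D4 shUbc9 the number of members that rose was 59, and it was 11 without replicate 1 or replicate 3 and 6, 9 and 7 without control replicates 1, 2 and 3. At D7 the number was 7 when control replicate 1 was left out, and 14 and 13 when shUbc9 replicate 1 or 3 was. With library sizes alone, 56 members rose at D4 and 87 at D7, but the median of all genes then also shifted to 0.07 and 0.21, and 71.5% of all calls at D7 were then higher calls, against 50.9% with TMM scaling. The median over members at D4 was 0.31 without shUbc9 replicate 2 and 0.09 without replicate 3. With all 28 libraries in 1 fit, 7 and 9 members rose. None fell in these refits.

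**Figure D2:**
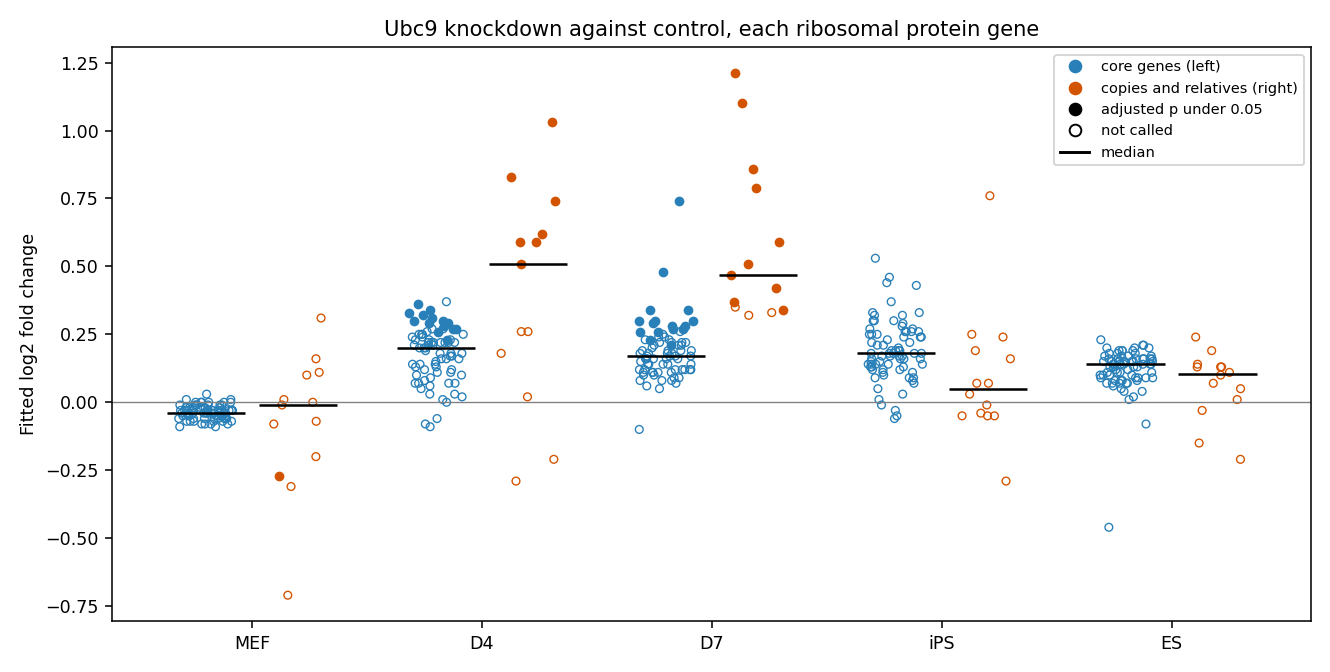
Log2 fold change of each member with Ubc9 knockdown in each of the 5 states, core genes in blue on the left and copies and relatives in orange on the right of each state; filled points passed adjusted p under 0.05 and black lines are medians. Filled points are found at D4 and D7, apart from Rpl22l1 in MEF, and the medians of the copies there (0.51 and 0.47) lie above those of the core genes (0.2 and 0.17), although Rps3a3 and Rpl32l are negative at D4.

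Among the paralogs of small-subunit proteins, Rps27l and Rps4l rose at both times. Rps27l is the paralog of Rps27, a zinc-finger protein of the small subunit, and it is also known as a target of p53. Rps27l was at 120, 136 and 126 CPM in D4 controls and 190, 169 and 224 CPM with shUbc9, with no overlap (log2 fold change 0.59, SE 0.1, adjusted p = 0.0013). Rps27 was at 156, 151 and 150 CPM against 159, 131 and 177 CPM, groups that overlap (0.01, adjusted p = 0.94). Of the reads on the pair, Rps27l took 43.5% to 47.3% in D4 controls and 54.3% to 56.3% in D4 shUbc9. At D7 Rps27l was at 120, 138 and 119 CPM against 194, 148 and 174 CPM (log2 fold change 0.42, SE 0.11, adjusted p = 0.0101), and its share of the pair was 41.9% to 47.3% against 49% to 51.6%. The D7 call was lost without control replicate 1 (adjusted p = 0.0561). In MEF its share was 44.2% to 45.7% against 44.7% to 46.3%, so it did not separate the groups. Whether the change of a paralog differed from that of its parent was not tested for any pair.

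Rps4l, an autosomal copy of the X-linked small-subunit gene Rps4x, was separated between groups at both times. Rps4l was at 61.9, 70.1 and 65.1 CPM in D4 controls and 104, 94 and 110 CPM with shUbc9 (log2 fold change 0.62, SE 0.076, adjusted p = 0.000177). At D7 it was at 67, 71.4 and 57.4 CPM against 104, 121 and 121 CPM (0.79, SE 0.085, adjusted p = 1e-04). All shUbc9 libraries lay above all controls at both times. Rps4x itself was at 292, 293 and 287 CPM against 337, 316 and 415 CPM at D4, which did not pass the test (log2 fold change 0.27, adjusted p = 0.0542). The share of Rps4l in the pair rose with these levels, from 17.5% to 19.3% in D4 controls and 21% to 23.6% with shUbc9, and from 16.5% to 18.9% and 20.7% to 26.5% at D7, shares that were not tested. In MEF, before OKSM, Rps4l was at 67.3, 68.3 and 56.3 CPM against 66.7 and 71.3 CPM, and these overlap.

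Among the large-subunit paralogs, Rpl7l1, an Rpl7-like protein known to work in assembly of the large subunit, rose at both times. Rpl7l1 was at 110, 131 and 114 CPM in D4 controls and 170, 172 and 200 CPM with shUbc9 (log2 fold change 0.59, SE 0.087, adjusted p = 0.00047), and at 118, 132 and 101 CPM against 183, 157 and 160 CPM at D7 (0.47, SE 0.091, adjusted p = 0.00242). Neither time showed overlap. Its parent Rpl7 also rose, from 522, 538 and 523 CPM to 644, 586 and 769 CPM at D4 (log2 fold change 0.32, SE 0.11, adjusted p = 0.031) and from 517, 598 and 526 CPM to 755, 626 and 646 CPM at D7 (0.27, SE 0.099, adjusted p = 0.0474). The D4 call of Rpl7 was lost with the replicate block (0.0524) and without control replicate 1 (0.0888), 2 (0.0689) or 3 (0.0929) or shUbc9 replicate 1 (0.0519). Its D7 call was lost with no filter (0.0514), with the block (0.123) and without control replicate 1 (0.219) or 3 (0.0729) or shUbc9 replicate 1 (0.143) or 3 (0.0874). Rpl36al, the autosomal copy of X-linked Rpl36a, was at 62.1, 74.6 and 68.4 CPM against 93, 85.2 and 117 CPM at D4 (log2 fold change 0.51, SE 0.12, adjusted p = 0.00614). At D7 it was at 73.9, 83.9 and 65.3 CPM against 108, 90.2 and 97.4 CPM (0.37, SE 0.094, adjusted p = 0.00976), a call lost without control replicate 1 (adjusted p = 0.0561). Its parent Rpl36a did not pass at D4 (0.25, adjusted p = 0.0608) and rose at D7, from 128, 154 and 139 CPM to 209, 160 and 176 CPM (0.34, SE 0.11, adjusted p = 0.0347), a call lost with the block (0.078) and without control replicate 1 (0.158) or shUbc9 replicate 1 (0.109) or 3 (0.0781). Rpl39l, the paralog of Rpl39, a small protein at the exit of the peptide tunnel, was low but did not overlap. It was at 4.14, 6.95 and 5.31 CPM against 8.74, 8.79 and 10.8 CPM at D4 (log2 fold change 0.74, SE 0.16, adjusted p = 0.00446) and at 6.15, 7.06 and 4.96 CPM against 9.82, 8.31 and 10 CPM at D7 (0.59, SE 0.14, adjusted p = 0.00639). Rpl39 itself also passed at D7, at 0.665, 0.527 and 0.37 CPM against 0.966, 1.03 and 0.821 CPM. That call was lost with DESeq2 (0.102) and without control replicate 2 (0.0716) or 3 (0.0643) or shUbc9 replicate 1 (0.0593) or 2 (0.0698). The share of Rpl39l in the pair was 91.1% to 91.9% against 92.8% to 93.5% at D4. At D7 it was 90.2% to 93.1% against 89% to 92.4%, which overlap.

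Rpl22, a large-subunit protein known to hold down expression of its own paralog, and that paralog Rpl22l1 did not move together in every state. Rpl22 was at 203, 241 and 216 CPM in D4 controls and 279, 254 and 326 CPM with shUbc9 (log2 fold change 0.36, SE 0.1, adjusted p = 0.0141), a call lost without control replicate 1 (adjusted p = 0.0736) or 3 (0.0524). Rpl22l1 was at 64.5, 86.9 and 71.3 CPM against 87.8, 79.1 and 104 CPM there, groups that overlap (0.26, adjusted p = 0.0953). Neither gene passed the test at D7, with log2 fold changes of 0.26 for Rpl22 (adjusted p = 0.0504) and 0.35 for Rpl22l1 (adjusted p = 0.0703). In MEF, Rpl22l1 was the single member that changed, against 6.04% of all genes (3.83% rising and 2.21% falling): it fell from 87.9, 93.3 and 84.1 CPM to 74.4 and 72.9 CPM (log2 fold change -0.27, SE 0.051, adjusted p = 0.0154), while Rpl22 was at 268, 286 and 274 CPM and 270 and 286 CPM. That call was lost without either shUbc9 library (adjusted p = 0.077 without replicate 1 and 0.19 without replicate 3), and with all 28 libraries in 1 fit. Over all members tested in MEF, the median log2 fold change was -0.03, 16 members did not overlap between groups (17.8%) against 34.1% of all genes, and an unadjusted p under 0.05 was reached by 3 members, Rpl22l1, Rpl39l (0.31, adjusted p = 0.133) and Rpl32l (-0.71, adjusted p = 0.134).

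Weakly counted copies had the highest fold changes at D4 and D7. Rps3a2, a copy of the small-subunit gene Rps3a1, was at 2.69, 2.61 and 2.94 CPM in D4 controls and 4.62, 5.05 and 7.48 CPM with shUbc9 (2.04-fold, log2 fold change 1.03, SE 0.2, adjusted p = 0.00206). Rps3a3 was at 1.38, 1.55 and 2.16 CPM against 4.19, 3.35 and 4.13 CPM at D7 (2.31-fold, log2 fold change 1.21, SE 0.21, adjusted p = 0.00156). Their parent Rps3a1 was at 406, 415 and 409 CPM in D4 controls and 502, 455 and 611 CPM with shUbc9 (log2 fold change 0.33, adjusted p = 0.031). Also at D7, Rpl32l was at 0.895, 1.17 and 1.9 CPM against 3.19, 2.08 and 2.97 CPM (log2 fold change 1.1, SE 0.3, adjusted p = 0.0138, lost without control replicate 1 at 0.0695 or shUbc9 replicate 3 at 0.0538). Rpl6l was at 1.79, 2.23 and 2.38 CPM against 4.21, 3.43 and 4.04 CPM (0.86, SE 0.18, adjusted p = 0.0035). The sources used here give neither the treatment of reads shared by near-identical genes nor the strand setting of the counting, so the values of all copies, and of parents with close copies, are uncertain. Rpl39, which is itself a core gene, was counted at only 0.37 to 2.43 CPM in the controls of all states.

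**Figure D3:**
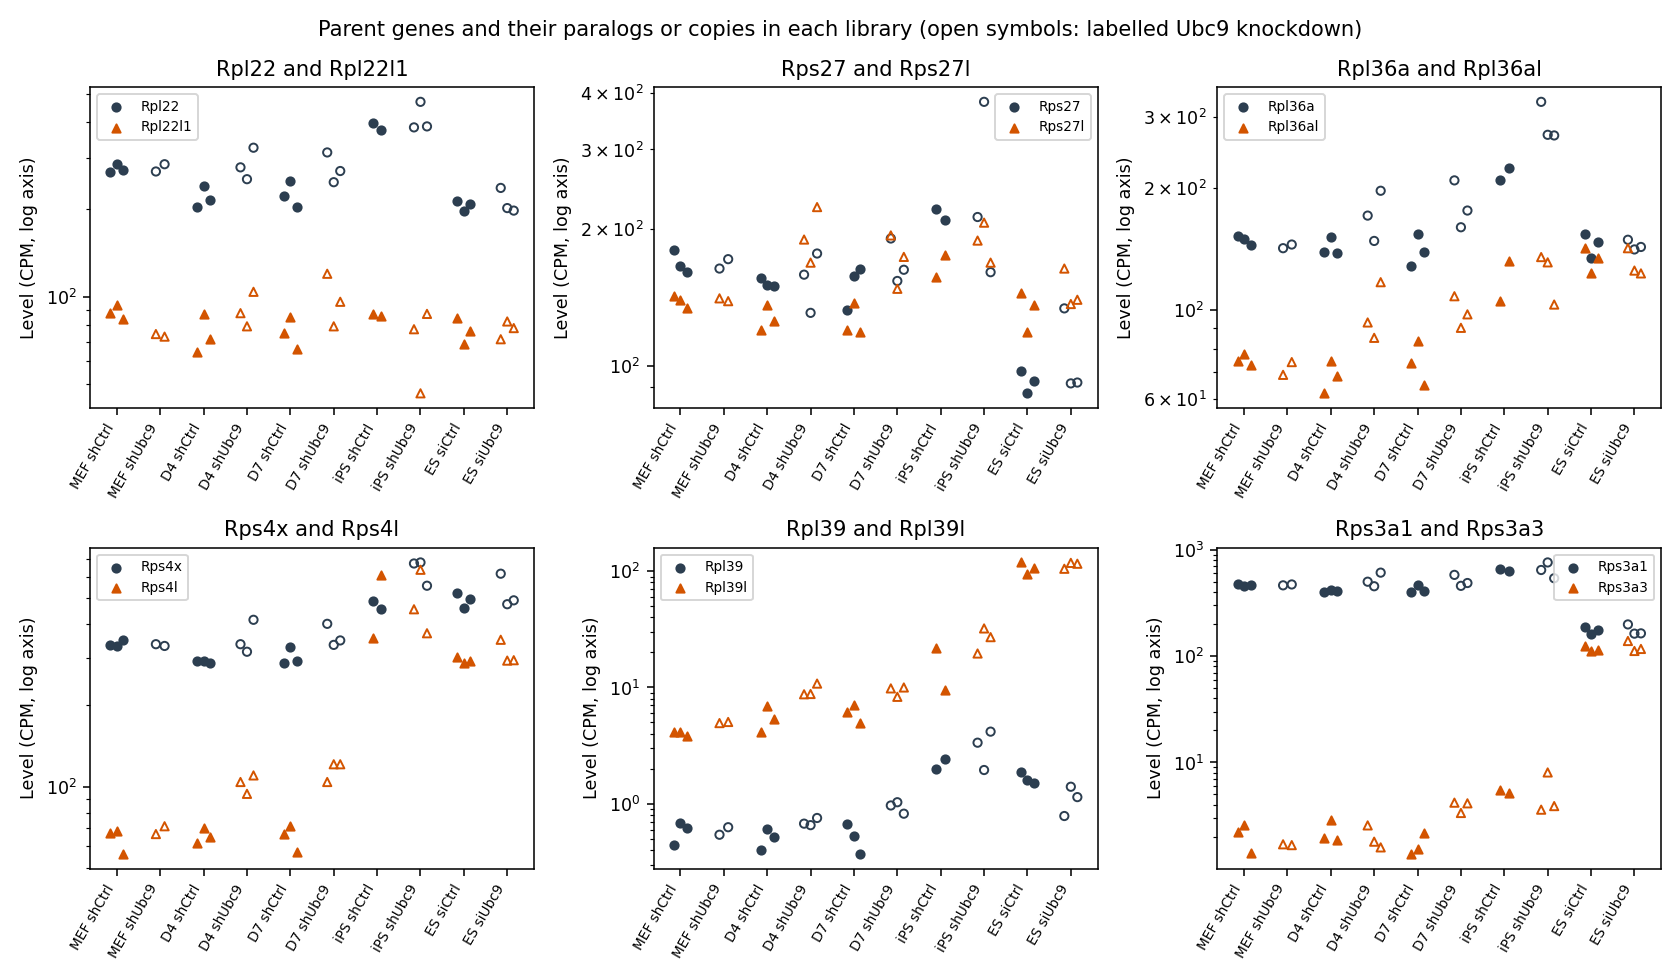
CPM on a log axis in every library for 6 parent and paralog pairs (Rpl22 and Rpl22l1, Rps27 and Rps27l, Rpl36a and Rpl36al, Rps4x and Rps4l, Rpl39 and Rpl39l, Rps3a1 and Rps3a3); open symbols are libraries labelled as Ubc9 knockdown. At D4 the open Rps27l points (169 to 224 CPM) lie above the filled ones (120 to 136 CPM) while those of Rps27 overlap, and in ES cells Rps3a3 is high (111 to 126 CPM in controls) where Rps3a1 is low (161 to 189 CPM).

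Core genes that rose were found in both subunits, at shares no higher than that of all genes. At D4 they were 10 of 46 large-subunit and 4 of 31 small-subunit genes, and at D7 12 of 46 and 4 of 31. Of all genes 27.2% rose at D4 and 27.3% at D7. Beside the rises under the rule for named genes, the following were chosen after their values were seen. Rps3, a protein at the entry of the mRNA channel that also acts in DNA repair, was at 561, 580 and 565 CPM against 713, 652 and 830 CPM at D4 (log2 fold change 0.34, adjusted p = 0.0165). Rps6, the phosphorylated protein of the small subunit whose start region is shown above, was at 229, 239 and 234 CPM against 284, 250 and 325 CPM (0.27, adjusted p = 0.0401), and at D7 at 225, 260 and 219 CPM against 324, 276 and 281 CPM (0.28, adjusted p = 0.0226). Rpl15 was at 238, 249 and 243 CPM against 292, 265 and 349 CPM at D4 (0.29, adjusted p = 0.0377). These groups do not overlap, and shUbc9 replicate 3 is the highest library of each gene at D4. Rpl13, a large-subunit protein, was at 309, 366 and 330 CPM against 409, 512 and 522 CPM at D7 (log2 fold change 0.48, SE 0.11, adjusted p = 0.00695), while at D4 its shUbc9 libraries, at 360, 292 and 395 CPM, overlapped the controls at 314, 312 and 303 CPM. Rpl28, a large-subunit protein, had a negative value at both times, with 267, 244 and 260 CPM against 254, 215 and 271 CPM at D4 and log2 fold changes of -0.08 and -0.1. Of the members with the highest mean level, Rpl4 was at 730, 723 and 752 CPM against 820, 761 and 993 CPM at D4, and Rpsa at 805, 791 and 812 CPM against 860, 779 and 1030 CPM, which overlap.

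Other cell-type markers moved in the same comparisons. Macrophage markers rose in 8 of 8 genes tested at D4, from a sum of 48.3 to 51.7 CPM to 83.4 to 85 CPM, and in 7 of 8 in MEF, from 67.6 to 92.5 CPM to 126 to 134 CPM, but in 0 of 8 at D7. The fibroblast markers fell at D4 and D7, 8 genes at D4 with sums of 26700 to 36200 CPM against 18200 to 20200 CPM, and 7 genes at D7 with 36500 to 46400 CPM against 16300 to 20400 CPM, where 1 rose. In MEF 3 of 8 fibroblast markers rose and 0 fell, with sums that overlapped. Epithelial markers rose in 3 of 8 genes at D4 and fell in 1, from 139 to 148 CPM to 246 to 250 CPM. At D7, pluripotency markers rose in 8 genes, from 5.44 to 20.4 CPM to 63.3 to 78 CPM, and epithelial markers in 8, from 191 to 283 CPM to 811 to 887 CPM. Their part in the members' values was not tested.

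The effect of shUbc9 at D4 was set against that in MEF by a test of the difference itself. For 9 of 90 members the response was higher at D4 and for 0 it was lower, against 36.6% of all genes with a different response (17% higher and 19.6% lower). The median difference was 0.22. Among the 9 were 6 copies: Rps3a2 (difference in log2 fold change 0.9, adjusted p = 0.0283), Rpl7l1 (0.58, adjusted p = 0.00121), Rps27l (0.56, adjusted p = 0.00471), Rpl36al (0.56, adjusted p = 0.01), Rpl22l1 (0.51, adjusted p = 0.0184) and Rps4l (0.5, adjusted p = 0.00544). The core genes Rps3, Rpl22 and Rpl14 were the others, at 0.36, 0.34 and 0.27. The call of Rpl22 was lost with the replicate block (adjusted p = 0.0559) and without D4 shCtrl replicate 1 (0.0998) or 3 (0.0878), MEF shCtrl replicate 1 (0.0703), 2 (0.0614) or 3 (0.0772), or MEF shUbc9 replicate 1 (0.113) or 3 (0.0724). That of Rps3a2 was lost without D4 shCtrl replicate 2 (0.0504), MEF shCtrl replicate 3 (0.075) or MEF shUbc9 replicate 3 (0.101), and that of Rpl22l1 without MEF shUbc9 replicate 3 (0.0596). The count was 60 without D4 shUbc9 replicate 2, 5 without MEF shCtrl replicate 3 and 4 without MEF shUbc9 replicate 3, and it was 47 with library sizes alone and 0 with all 28 libraries in 1 fit. Between D7 and D4, a comparison that shares the D4 libraries with the last, 1 of 90 members differed, Rps3a3 (1.43, SE 0.33, adjusted p = 0.0118), against 12.3% of all genes (6.04% higher and 6.24% lower). At D4 Rps3a3 was at 1.93, 2.9 and 1.85 CPM in controls and 2.56, 1.8 and 1.59 CPM with shUbc9.

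In iPS cells no gene of the whole table passed the test (0%), members included. No member and 246 of 17294 genes reached an unadjusted p under 0.05, and DESeq2 called 0 members and 10 genes. The members' median log2 fold change was 0.17 and turned to -0.17 without replicate 2 of the libraries labelled iPS shUbc9, the one that stands apart. Only 3 members (3.3%) did not overlap between groups, the X-linked genes Rpl10, Rps4x and Rpl36a (named after their values were seen), against 12.4% of all genes. Genes on the X chromosome had a median of 0.68 against 0.01 for autosomal genes in that comparison, and the 4 X-linked core genes had 0.45 against 0.18 for the 73 autosomal ones. Rps4x, one of the 4, was at 489 and 455 CPM in the controls and 671, 677 and 555 CPM in the libraries labelled shUbc9, and Rpl10, a large-subunit protein that joins late in assembly, was at 556 and 599 CPM against 849, 828 and 692 CPM. Neither passed (adjusted p = 1), although the groups of both genes do not overlap.

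In ES cells, 0 of 91 members passed the test in either direction, against 39.1% of all genes (21.3% rising and 17.8% falling). DESeq2 also called 0 members, and 2 reached an unadjusted p under 0.05, Rps19bp1 (log2 fold change -0.15, adjusted p = 0.0563) and Rpl39 (-0.46, adjusted p = 0.0793), named after their values were seen. The median log2 fold change was 0.13, with values from -0.46 to 0.24, and it was -0.02 without replicate 1 of ES siUbc9, the library with the highest sum. That library was also the shallowest ES library, at 17.4 M counts against 44.5 M to 54 M in the others. The groups did not overlap for Rps19bp1, Rpl39 and Rpl29, 3 members (3.3%), against 51.4% of all genes. Rplp0 was at 708, 659 and 676 CPM against 845, 635 and 651 CPM, and Rpsa at 1000, 952 and 978 CPM against 1200, 927 and 968 CPM, so that siUbc9 replicate 1 was the highest library of both genes, and the other siUbc9 libraries lay below the controls for Rplp0 and among or below them for Rpsa. Rps27l, Rps4l and Rpl7l1, which rose at D4 and D7, overlapped here: Rps4l, for one, was at 303, 286 and 292 CPM against 350, 293 and 294 CPM. Compared with MEF by a test of the difference, 1 of 91 members responded differently, Rpl22l1 (0.31), against 20.6% of all genes (10.3% higher and 10.3% lower), and that call was lost with the replicate block (adjusted p = 0.0609), with all 28 libraries in 1 fit (0.87) and without MEF shCtrl replicate 1 (0.0507) or 2 (0.0674), MEF shUbc9 replicate 1 (0.0823) or 3 (0.128), ES siCtrl replicate 3 (0.0663) or ES siUbc9 replicate 2 (0.0888) or 3 (0.0697).

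The control libraries describe how the family changed along reprogramming. From MEF to D4, 45 members fell and 1 rose of 90, against 66.7% of all genes passing, 33.3% rising and 33.5% falling. The groups did not overlap for 67 members (74.4%) against 68.9% of all genes. The falls were small, with a median of -0.14 over members and the lowest value at -0.34. They included 42 of 77 core genes. Over the same step macrophage markers fell in 7 of 8 genes and rose in 1 (summed 67.6 to 92.5 CPM in MEF, 48.3 to 51.7 CPM at D4). Epithelial markers rose in 5 of 8 and fell in 1 (14.2 to 16.3 CPM and 139 to 148 CPM), and endothelial markers rose in 3 of 5 tested and fell in 2 (12.5 to 14 CPM and 162 to 178 CPM). Fibroblast markers rose in 3 of 8 and fell in 4, and the part of all these in the members' values was not tested. Rpl13a, which is known to leave the ribosome in the interferon response, fell from 555, 520 and 525 CPM to 404, 417 and 423 CPM (-0.32, SE 0.056, adjusted p = 0.000727). With library sizes alone 8 members fell, and all genes had a median of 0.1 with that scaling; with all 28 libraries in 1 fit 0 fell. Between D4 and D7 controls 0 of 90 members passed, against 18.2% of all genes (10.6% rising and 7.65% falling), and 0 reached an unadjusted p under 0.05 (DESeq2 also called 0). Only Rpl29 and Rpl10, 2 members (2.22%) named after their values were seen, did not overlap between these groups, against 32.6% of all genes.

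In iPS controls, 81 of 91 members were higher than at D7 and 0 were lower, against 73.8% of all genes passing, 36.2% rising and 37.6% falling. All 91 members were without overlap between groups, compared with 82.5% of all genes. The core genes rose by a median log2 of 0.56 (69 of 77 passed) and the copies and relatives by 1.29 (12 of 14), with a median of -0.03 over all genes. Without control replicate 1 of D7 the number that passed was 45. Rpl4 rose from 735, 788 and 737 CPM to 1440 and 1360 CPM (log2 fold change 0.79, SE 0.14, adjusted p = 0.00186), and Rplp0 from 1070, 1250 and 1180 CPM to 1720 and 1620 CPM (0.42, SE 0.16, adjusted p = 0.0474, a call lost without any 1 of the 5 libraries, with adjusted p from 0.053 to 0.186). Rps4l went from 67, 71.4 and 57.4 CPM to 356 and 610 CPM (2.8, SE 0.24, adjusted p = 6.02e-05). Rps23rg1, a retrogene copy of Rps23, was at 0.0688, 0.117 and 0.0528 CPM at D7 and 7.42 and 5.47 CPM in iPS cells, from 8 reads over the D7 controls and 445 over the iPS controls. It is counted among the 81 but entered the test through the iPS libraries, so only its levels are given.

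ES controls differed from MEF controls in the make-up of the family more than in its sum. Of 91 members 27 rose and 36 fell, against 90.5% of all genes passing (47.7% rising and 42.8% falling), and 63 members (69.2%) did not overlap between groups against 90.5% of all genes. Of the core genes, 18 were higher and 35 lower. The median log2 fold change was -0.06 over the members, against 0.13 over all genes, and with library sizes alone these were 0.08 and 0.27, with 39 members rising and 24 falling, so the balance of rises and falls turned with the scaling. The copies and relatives were mostly higher, 9 against 1 lower (Rpl22l1) of 14. Rps23rg1, counted among the 9, had no read in MEF controls and entered the test through the ES libraries. Rpl29, a heparin-binding large-subunit protein, was at 266, 266 and 265 CPM in MEF and 29.5, 27.1 and 28 CPM in ES cells (9.51-fold lower, log2 fold change -3.25, SE 0.059, adjusted p = 1.01e-12). In the other states Rpl29 was at 239 to 250 CPM in D4 controls and 250 to 269 CPM in D7 controls, and iPS controls had 379 and 400 CPM. ES cells thus stand apart from iPS cells in this gene (13.6-fold, log2 fold change of iPS over ES 3.77, SE 0.1, adjusted p = 2.73e-05), and siUbc9 left it at 25.3, 25.4 and 26.6 CPM.

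Rps3a1 and its copies Rps3a2 and Rps3a3 moved in opposite directions between MEF and ES cells. Rps3a1, a small-subunit protein that contacts initiation factors, was at 479, 461 and 468 CPM in MEF, 655 and 635 CPM in iPS controls and 189, 161 and 175 CPM in ES controls (log2 fold change of ES over MEF -1.44, SE 0.07, adjusted p = 3.02e-09). Rps3a3 was at 2.2, 2.58 and 1.42 CPM, 5.57 and 5.12 CPM, and 126, 111 and 115 CPM in the same groups (55.8-fold higher in ES cells than in MEF, log2 fold change 5.8, SE 0.14, adjusted p = 8.1e-12). Rps3a2 was at 3.24, 2.85 and 4.19 CPM, 7.67 and 7.37 CPM, and 50.6, 43.5 and 48 CPM (13.8-fold, 3.78, SE 0.13, adjusted p = 1.49e-10). The 2 copies together took 1.12% to 1.19% of the reads of the 3 genes in MEF controls, 1.93% to 1.98% in iPS controls and 48.2% to 49.1% in ES controls. Summed over the 3 genes the level was 475 ± 8.99 CPM (SD, n = 3) in MEF, 658 ± 14.6 CPM (SD, n = 2) in iPS and 340 ± 25 CPM (SD, n = 3) in ES controls. Rps3a2 and Rps3a3 lie 6.39-fold and 22.3-fold lower in iPS than in ES controls, and read assignment among the 3 genes cannot be checked from counts.

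Rpl39l was the other copy that set ES cells apart, at 119, 94.4 and 106 CPM in ES controls, 4.17, 4.1 and 3.82 CPM in MEF and 21.9 and 9.43 CPM in iPS controls (26.2-fold higher in ES cells than in MEF, log2 fold change 4.71, SE 0.1, adjusted p = 3.83e-12). The 2 iPS controls lie far apart, and both are lower than every ES control (iPS over ES -2.79, SE 0.35, adjusted p = 0.00118). Rps23rg1 had no read in MEF and 602 reads in ES controls, at 4.03, 4.17 and 4.08 CPM. It entered the test through the ES libraries, so only its levels are given. Rps4l, at 303, 286 and 292 CPM, was 4.55-fold higher in ES cells than in MEF, and its share of the Rps4 pair was 36.7% to 38.4%. Among the core genes, the stalk proteins fell from MEF to ES cells. Rplp0 was at 1300, 1240 and 1270 CPM in MEF and 708, 659 and 676 CPM in ES controls (log2 fold change -0.91, SE 0.062, adjusted p = 6.38e-08), and Rplp1, chosen after its values were seen, was at 527, 472 and 477 CPM and 239, 219 and 233 CPM (-1.11, SE 0.071, adjusted p = 3.68e-08). Rpl34 fell from 230, 221 and 214 CPM to 105, 93.8 and 103 CPM (-1.15, SE 0.065, adjusted p = 1.14e-08). Rpl4 moved the other way, from 863, 859 and 878 CPM to 1460, 1320 and 1380 CPM (0.66, SE 0.062, adjusted p = 1.18e-06), and Rpsa, the laminin receptor protein of the small subunit, did not pass (-0.03, adjusted p = 0.672).

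**Figure D4:**
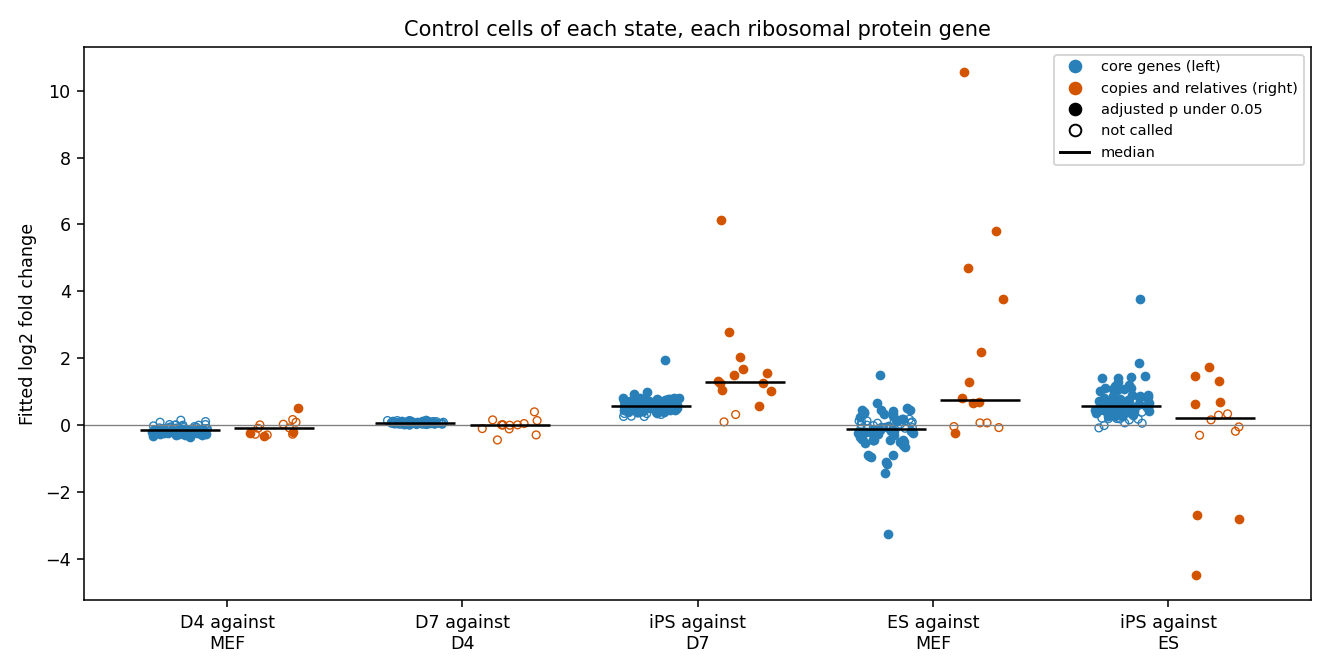
Log2 fold change of each member between control groups (D4 against MEF, D7 against D4, iPS against D7, ES against MEF, iPS against ES), core genes and copies drawn apart; filled points passed adjusted p under 0.05 and lines are medians. In the comparisons with ES cells the core gene Rpl29 lies at -3.25 and 3.77, and among the copies Rps3a3 lies at 5.8 and -4.48.

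Set side by side, the 2 pluripotent states differed in most members. In iPS controls 70 of 91 members were higher and 3 lower than in ES controls, against 53.3% of all genes passing, 27.3% higher and 26% lower. The groups did not overlap for 83 members (91.2%) against 71% of all genes. Core genes made up 65 of the 70, and the 3 were Rps3a2, Rps3a3 and Rpl39l. The median was 0.55 over members. This comparison shares its control libraries with those of iPS cells against D7 and of ES cells against MEF, and the states also differ in origin and in the kind of control, a hairpin or a siRNA. Fibroblast markers were higher in iPS controls in 7 of 8 genes and lower in 0. Macrophage markers were higher in 4 and lower in 2 of 7 tested, and pluripotency markers higher in 4 and lower in 2 of 8. The part of these markers in the members' values was not tested. Rps3a1 was 3.64-fold higher in iPS cells (log2 fold change 1.86, SE 0.1, adjusted p = 0.000102) and Rpl32l was at 5.08 and 6.14 CPM against 1.48, 1.63 and 1.87 CPM (1.74, SE 0.22, adjusted p = 0.00117). Rpl4 did not pass (-0.01, adjusted p = 0.968), with 1440 and 1360 CPM beside 1460, 1320 and 1380 CPM. Without 1 library at a time, 48 to 75 members were higher.

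Ribosome biogenesis factors, RNA polymerase I genes and hosts of small nucleolar RNAs had higher medians than the ribosomal protein genes at D4 and D7, a difference that was not tested. Of 35 ribosome biogenesis factors tested, 33 rose with shUbc9 at D4 and 31 at D7, with none falling, and median log2 fold changes of 0.65 and 0.58, against 53.2% and 53.6% of all genes passing. Rrp9, a component of the U3 particle that cuts ribosomal RNA precursors, rose from a mean of 28.8 to 64 CPM at D4 (log2 fold change 1.13, SE 0.072, adjusted p = 5.64e-06), and Heatr1, needed for transcription of ribosomal DNA, from 77.3 to 139 CPM (0.83, SE 0.058, adjusted p = 8.73e-06). Nhp2, of the H/ACA particles that make pseudouridine, rose from 42.3 to 95.5 CPM at D7. RNA polymerase I genes rose in 9 of 13 at D4 and 10 of 13 at D7 (medians 0.43 and 0.47), with Polr1e at 1.14 and 0.92. Hosts of small nucleolar RNAs, many of which are TOP genes, rose in 10 of 11 at both times (medians 0.41 and 0.6), with Snhg1 at 0.64 at D4. In MEF none of the 35 biogenesis factors passed, and in ES cells 6 fell and 0 rose, with a median of -0.09, a share of 17.1% against 17.8% of all genes falling there, including Nob1, which matures the small subunit (-0.33), and Rrp9 (-0.19). In controls, all 35 factors were higher in ES cells than in MEF and in iPS cells than at D7, with medians of 1.99 and 1.81, while the ribosomal protein genes had medians of -0.06 and 0.58.

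Genes with TOP messages that are not in the family, and the ribosomal proteins of mitochondria, gave a further comparison. Of 23 TOP genes, 10 rose and 1 fell at D4 and 8 rose at D7, which is 47.8% and 34.8% called against 53.2% and 53.6% of all genes, with medians of 0.16 and 0.14 that lie near those of the core genes (0.2 and 0.17). Npm1, a nucleolar chaperone, rose by 0.59 and 0.57 on the log2 scale, Eif3e by 0.59 at D4, and Eif3f fell by 0.21 there. Fau, which carries a ribosomal protein fused to a ubiquitin-like sequence, was 0.81 higher on the log2 scale in iPS than in ES controls, in the direction of the core median of 0.56. Mitochondrial ribosomal protein genes, which share no subunit with the cytosolic ribosome, rose in 58 of 78 at D4 with 1 falling and in 59 of 78 at D7 with 0 falling, medians 0.36 and 0.39. Of all genes 27.2% and 27.3% rose at those times. In ES cells 2 were higher and 7 lower, 11.5% called against 39.1% of all genes. Of 14 translation control genes 3 rose and 4 fell at D4, a share called of 50% that is close to the 53.2% of all genes, including Eif4ebp1, the repressor of cap-dependent initiation (0.62), and Rps6kb1, the S6 kinase (-0.42). Of 12 genes for import and chaperoning of ribosomal proteins 8 rose and 1 fell at D4, with Grwd1 at 0.68 and Ipo7 at 0.6, and 5 rose and 2 fell at D7 (75% and 58.3% called against 53.2% and 53.6%). Differences between lists were not tested.

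**Figure D5:**
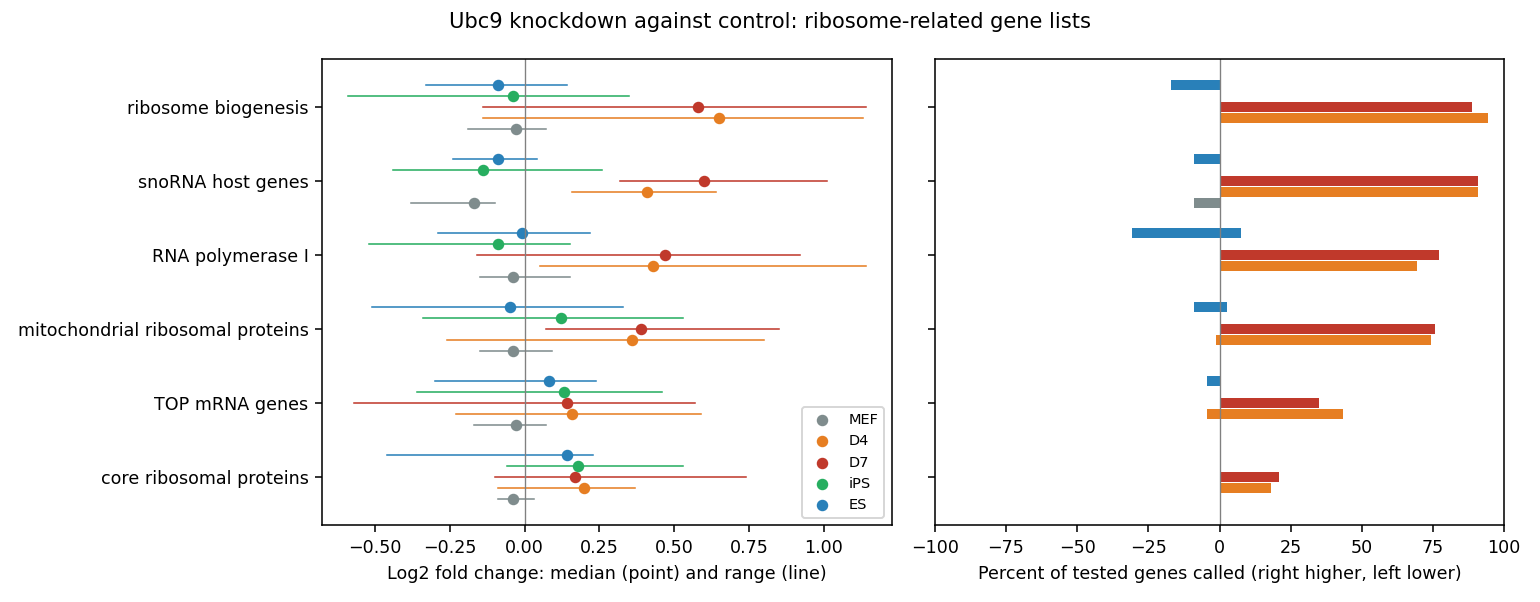
Median and range of the log2 fold change (and percent of genes called) per gene list in the 5 Ubc9 comparisons, with the ribosomal protein genes beside ribosome biogenesis, RNA polymerase I, small nucleolar RNA hosts, TOP genes and mitochondrial ribosomal proteins. The biogenesis list has medians of 0.65 at D4 and 0.58 at D7 and the small nucleolar RNA hosts 0.41 and 0.6, while the core genes, at 0.2 and 0.17, lie near the TOP genes.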

How the data were processed

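Total RNA libraries with ribosomal RNA removed were made with a strand-marking kit, per the labels' protocols, which speak of triplicates. Tools named in the submitters' processing notes are featureCounts, DESeq2 and STAR 2.5.0a, with the build mm9 and no parameters. The authors deposited raw read counts per gene and per repeat family (799 families) in 1 table. All 28 columns were matched to samples by name, and 0 columns were left unmatched. Entrez identifiers were given symbols from RefSeq (GRCm38.p6), with 24191 matched and 2110 not. Gene rows alone entered library sizes and tests. The 32 peak lists of the series were not used here. The members and gene lists were chosen with earlier results of these data known, and the class of further copies was set after the table was read.

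Counts were tested in R 4.3.3 with edgeR 4.0.16 (quasi-likelihood test, TMM scaling, filterByExpr with a minimum count of 10), 1 fit per comparison over its own groups, with Benjamini-Hochberg adjustment over all genes tested and a threshold of 0.05. Of the 91 members 90 passed the filter in comparisons within MEF, D4 and D7 (Rps23rg1 did not) and 91 passed in the others. Differences between states in the effect of Ubc9 were interaction terms over 4 groups. DESeq2 1.42.0, library sizes alone, TMM without the members, no filter, a replicate block, all 28 libraries in 1 fit, and leaving out each library were the alternatives. The scripts were tested on simulated data. No 2 libraries of the same group agreed within counting noise, and pairs from different groups were not compared in this way.

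Genes named are, per comparison, the 3 largest rises and 3 largest falls among called members with at least 1 CPM and no overlap, the paralogs with their parents, the 4 members with the highest mean CPM, and for other lists up to 2 rises and 2 falls with the smallest p. Others are stated as chosen after their values were seen. Some items that this rule would name are not reported here.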

Additional observations from a re-analysis of the deposited data

Results flagged for a closer look

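A difference between states in the effect of Ubc9 depletion, by the test of the difference itself, was found for these members. At D4 against MEF it was higher for 9 members: Rps3a2 by 0.9 on the log2 scale, Rpl7l1 by 0.58, Rps27l by 0.56, Rpl36al by 0.56, Rpl22l1 by 0.51, Rps4l by 0.5, Rpl22 by 0.34, and the core genes Rps3 and Rpl14 by 0.36 and 0.27. None of the 9 passed with all 28 libraries in 1 fit. At D7 against D4 it was higher for 1 member, Rps3a3, by 1.43, and that call was lost in the fit of all 28 libraries (adjusted p = 0.0712). In ES cells against MEF it was higher for 1 member, Rpl22l1, by 0.31, where MEF had a fall and ES cells had groups that overlap. Of all genes 17% had a higher and 19.6% a lower response at D4 against MEF. These shares were 6.04% and 6.24% at D7 against D4, and 10.3% and 10.3% in ES cells against MEF. The share of the members was lower than that of all genes in each of these comparisons. Groups of 2 or 3 libraries were not searched by a set rule for single libraries far from their group. Replicate 2 of the libraries labelled iPS shUbc9 is described above as standing apart from its values alone.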

How the results depend on the processing

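Counts of members that passed the test depended on the setting more than medians did. With all 28 libraries in 1 fit, 0 fell in MEF, 7 rose at D4, 9 at D7 and 1 in iPS cells, 0 fell from MEF to D4, 13 rose and 19 fell from MEF to ES cells, and the differences in response were 0 for D4 against MEF, 0 for D7 against D4 and 0 for ES cells against MEF. Library sizes alone gave 56 rises at D4, 87 at D7, 4 rises and 8 falls from MEF to D4, and 47 and 2 differences in response for D4 against MEF and D7 against D4. The share of all called genes that were higher moved from 63.4% to 52.1% in MEF, from 50.9% to 71.5% at D7, from 49.8% to 62.2% for D4 against MEF controls, from 58% to 39.4% for D7 against D4 controls and from 46.4% to 62.2% for the D4 against MEF response. No filter gave 24 and 2 differences in response for D4 against MEF and D7 against D4, and DESeq2 gave 2 for the latter. The cause of these changes was not tested.

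The labels do not say whether replicate numbers pair the samples. Correlations of same-numbered deviations ran from -0.43 to 0.28. Only for D4 against MEF controls did each of 3 samples match best with its own number (0.08, 0.25 and 0.09). For Ubc9 depletion in ES cells 2 of 3 did so. With so few samples per group these values cannot settle whether the numbers mark pairs. With the replicate block, 11 members rose at D4, 13 at D7, 4 in ES cells, 2 from MEF to D4 and 42 in iPS against ES controls, and 0 differed in response between ES cells and MEF.

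Medians that turned sign were 0.01 in MEF without shCtrl replicate 1, -0.15 with the block and -0.17 without shUbc9 replicate 2 in iPS cells, -0.02 in ES cells without siUbc9 replicate 1, -0.02 for D7 against D4 and 0.08 for ES against MEF with library sizes alone. For the D7 against D4 response, near 0 throughout, they were -0.01 with no filter, -0.01 with all 28 libraries, and -0.01, -0.1, -0.03 and -0.06 without D4 shUbc9 replicate 1 or 2 or D7 shCtrl or shUbc9 replicate 1.

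Medians were 0.34 in iPS cells without shUbc9 replicate 3, 0.2 in ES cells without siUbc9 replicate 2 and 0.13 for the D7 against D4 response without D4 shUbc9 replicate 3. Without 1 library at a time, rises numbered 6 to 59 at D4, 7 to 34 at D7, 0 to 1 in ES cells, 0 to 2 from MEF to D4, 0 to 1 from D4 to D7, 45 to 82 from D7 to iPS, 22 to 34 from MEF to ES cells and 48 to 75 in iPS against ES cells. Falls numbered 0 to 1 in MEF, 0 to 1 in ES cells, 30 to 47 from MEF to D4, 29 to 44 from MEF to ES cells and 3 to 6 in iPS against ES cells. Differences in response numbered 4 to 60, 1 to 2 and 0 to 1 for D4 against MEF, D7 against D4 and ES against MEF. Of 3436 refits of named members, 3224 kept direction and side of the threshold, 142 lost the call, 70 gained one and 0 reversed a called direction. Low counts limit the further copies, and 2 libraries per group limit MEF shUbc9 and iPS shCtrl.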
